A study of Mus musculus with 4 samples.

Results

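The members described here are 440 CpGs that carried over 1000 methylation calls each in at least 1 of the 2 deposited CpG tables of mouse germline stem cells, out of 19584109 CpGs listed in either table. A call is 1 read's verdict, methylated or unmethylated, on 1 cytosine, and depth is the number of calls. A block on chromosome 17, chr17:39843043-39848736, with 402 further CpGs over that limit, was left out. The RefSeq annotation places Rn18s-rs5, an 18S ribosomal RNA pseudogene, in it. The members fell into 39 blocks of 100 kb, with chromosomes 1 to 19 and X searched, and 381 of them passed 1000 calls in both tables, 16 in the 60-month table alone and 43 in the 5-month table alone. The members were chosen by their depth, so depth values are a description, and the methylation level, methylated calls as a percent of all calls at a site, had no part in the choice.

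The study profiled DNA methylation in germline stem cells, the cultured counterpart of spermatogonial stem cells, after long and short culture. The long culture, 60M-GS, had been kept for about 60 months and the short one, 5M-GS, for about 5 months, with 2 samples each. Both were wild type, came from testis of Green mice, a C57BL/6 Tg14(act-EGFP)OsbY01 line on a DBA/2 background, and grew in medium with human FGF2, rat GDNF and fetal bovine serum. The labels do not say whether the 2 samples of an age were separate lines. Genomic DNA was sequenced after bisulfite conversion by post-bisulfite adaptor tagging, in which adaptors are added after conversion. Each age had 1 table that pooled its samples, which leaves no spread between samples to compute, and every interval and p-value below covers counting error only.

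Satellite DNA is made of short units repeated in tandem over very long arrays. In the mouse the major (gamma) satellite fills pericentromeric heterochromatin and the minor satellite lies at the centromere itself. In somatic cells the major satellite is densely methylated, with DNMT3B, DNMT1 and the remodeller HELLS (LSH) among the proteins that keep it so, and it has long been known to be less methylated in germ cells than in somatic tissues. A genome assembly holds only a few copies of such arrays, so reads from a great many copies are placed on a few positions. The level at such a position is an average over copies and cells, and a change in level cannot be told apart from a change in which copies gave reads.

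The tables held 471693518 calls in 60M-GS, against 468121185 calls in 5M-GS, with a median per CpG of 22 calls in 60M-GS, against 21 in 5M-GS. The members took 6.65% of all calls in 60M-GS, against 7.26% in 5M-GS, a ratio of 0.916 (95% interval from counting error 0.9156 to 0.9165). The 5 deepest CpGs alone held 56.1% of the members' calls in 60M-GS, against 56.0% in 5M-GS. After scaling to all calls, 352 of the 440 members were deeper in 5M-GS.

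Over all their calls the 440 CpGs were methylated to 85.4% in 60M-GS, against 47.3% in 5M-GS, a difference of 38.2 percentage points (38.15 to 38.20). The chromosome 2 block carried most of these calls, and as a mean over the 39 blocks, each weighted equally, the difference was 18.1 points. The median CpG stood at 75.2% in 60M-GS, against 39.0% in 5M-GS. All other CpGs outside the chromosome 17 block were pooled at 75.7% in 60M-GS, against 74.4% in 5M-GS. The deep CpGs therefore lay below the rest of the genome in 5M-GS and above it in 60M-GS when pooled over calls. The median member stayed below the median of all CpGs tested, which was 88.5% in 60M-GS, against 88.9% in 5M-GS. Without the deepest block, on chromosome 2, the level of the remaining 379 CpGs was 78.9% in 60M-GS, against 38.8% in 5M-GS.

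Each CpG was compared by a two-sided Fisher's exact test, with Benjamini-Hochberg adjustment over the 15332174 CpGs covered by 10 or more calls in each table, and passed where the adjusted p was under 0.05 and the levels stood at least 20 points apart. Of the 440 members, 347 (78.9%) passed as higher in 60M-GS, where 2.02% of all CpGs tested did. No member passed as lower, where 0.215% of all CpGs tested did, and 14 members were lower at an unadjusted p under 0.05. Deep CpGs need smaller differences for a low p. With each CpG scaled to at most 100 calls per table, 337 members passed. This cap still lies above the median depth per CpG, which was 22 calls for 60M-GS and 21 for 5M-GS. Members thus kept a depth advantage, and the scaling cannot tell how much of the gap to 2.02% goes with depth. The limit of 1000 calls marked no step: the 30 CpGs with 901 to 1000 calls had medians of 75.9% in 60M-GS, against 43.4% in 5M-GS, and the 41 members with 1001 to 1100 calls had medians of 69.8% in 60M-GS, against 41.0% in 5M-GS. Below the limit, 31.4% of the 749 non-members with over 300 calls passed as higher, and 1.96% of those with up to 50 calls. The 749 include CpGs of the 234 bp spacing described below.

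**Figure D1:**
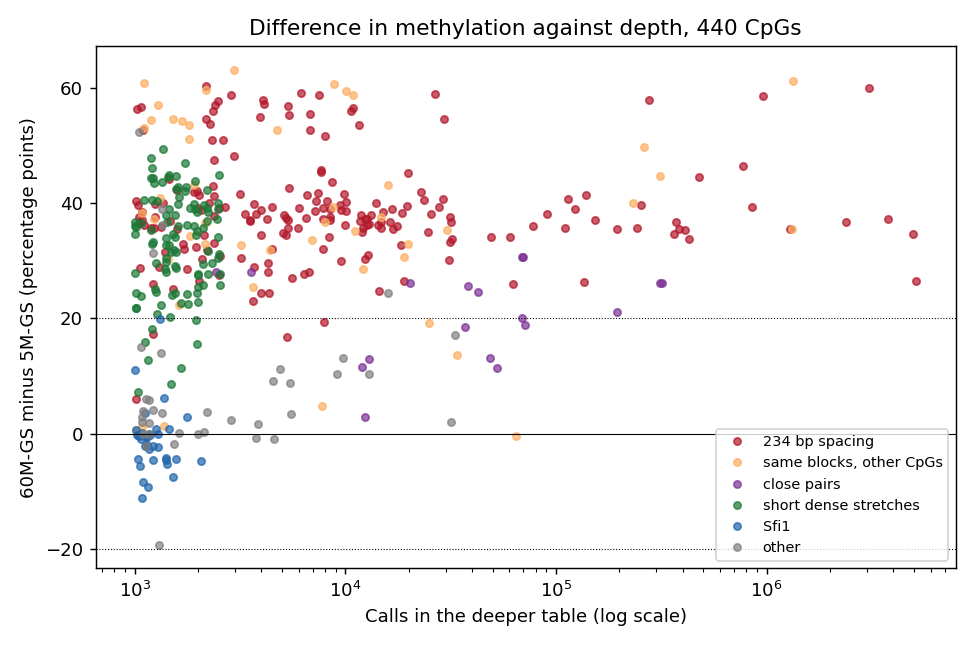
Each point is 1 of the 440 CpGs, with its calls in the deeper table on a log axis and its difference in methylation, 60M-GS minus 5M-GS in percentage points, on the vertical axis; colours give the spacing classes and dotted lines mark 20 points either way. Most CpGs with the 234 bp spacing lie between 20 and 60 points at every depth, the CpGs in Sfi1 lie near 0, and no point passes 20 points lower.

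The CpGs were not alike, and the order and distance of neighbouring CpGs sorted them into classes, drawn after the values had been seen. The commonest distance between a pair of members that lay over 100 and under 400 bp apart was 234 bp, found for 32 pairs, which is the unit length the major satellite is known for. Within that period the CpGs recurred at 7 positions with gaps of 12, 28, 18, 42, 16, 15 and 103 bp. By this ladder of gaps 197 CpGs in 5 blocks were called 234 bp CpGs. A further 48 CpGs lay in the same blocks off the ladder, 18 belonged to close pairs, 105 lay in short CpG-dense stretches, 35 lay in the gene Sfi1, and 37 fitted none of these. No genome sequence was used here, so the spacing stands in for the sequence and none is printed.

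The 197 CpGs on the 234 bp ladder held 83.4% of the members' calls in 60M-GS, against 84.1% in 5M-GS. Their level was 86.9% in 60M-GS, against 48.7% in 5M-GS, and the median CpG had 82.4% in 60M-GS, against 45.0% in 5M-GS. All 197 were higher in 60M-GS, and 193 passed the test. The 4 that did not pass differed by 6.09 to 19.3 points. Shallow and deep ladder CpGs had medians a few points apart: the 25 ladder CpGs with at least 100000 calls in 5M-GS had medians of 86.1% in 60M-GS, against 49.3% in 5M-GS, and the 124 with under 10000 calls had 80.8% in 60M-GS, against 42.7% in 5M-GS.

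The deepest block was a stretch of 5062 bp at chr2:98662264-98667325 with 61 members, outside any annotated gene and 35274 bp from the lncRNA gene Gm33780. It took 5.85% of all calls in 60M-GS, against 6.35% in 5M-GS, and its level was 86.3% in 60M-GS, against 48.5% in 5M-GS. Of its 61 CpGs, 50 passed as higher. The single deepest CpG, chr2:98667149, had 4975832 calls in 60M-GS, 226174 times that table's median, against 5138895 in 5M-GS, 244709 times its median. It was methylated to 90.1% in 60M-GS, against 63.6% in 5M-GS. That was the fourth position of the unit. The fifth position lay 42 bp before it in the files' coordinates, at chr2:98667107, and had 81.7% in 60M-GS, against 21.6% in 5M-GS. It had 3060285 calls in 60M-GS, against 2790601 in 5M-GS. The levels of these neighbours in 1 unit thus lay far apart in 5M-GS and close together in 60M-GS. The other 3 of the 5 deepest CpGs, chr2:98667167, chr2:98667195 and chr2:98667207, had 87.8%, 84.6% and 91.3% in 60M-GS, against 53.0%, 47.4% and 54.6% in 5M-GS.

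**Figure D2:**
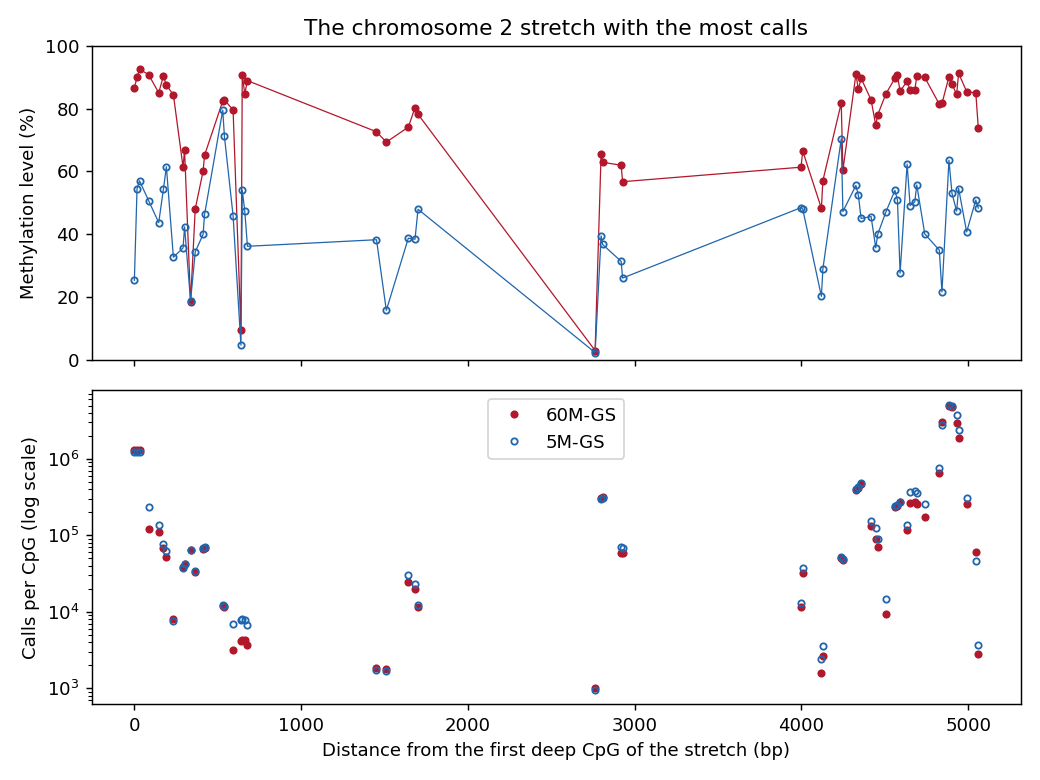
Methylation level in percent (upper panel, CpGs joined in order) and calls per CpG on a log axis (lower panel) for the 61 deep CpGs of the chromosome 2 stretch, against their distance in bp from the first. Filled points for 60M-GS lie above open points for 5M-GS at 60 of the 61 CpGs, 3 CpGs are under 20% in both, and depth in 60M-GS spans from 1016 to 4975832 calls.

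The positions within the unit differed from each other mainly in 5M-GS. The fifth position was picked because its median in 5M-GS was the lowest of the 7. Over its 30 ladder CpGs the median was 77.5% in 60M-GS, against 20.3% in 5M-GS. Over the 167 CpGs at the other positions it was 83.1% in 60M-GS, against 46.6% in 5M-GS. The medians of the 7 positions spread over 7.40 points in 60M-GS, against 28.2 points in 5M-GS. In 5M-GS, 28 of the 30 fifth-position CpGs were under 35%, as were 19 of the 167 others. The median difference was 56.5 points at the fifth position, the largest of the 7, and 28.6 points at the fourth, the smallest.

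This order recurred from block to block. On chromosome 2 the fifth position had a median of 85.6% in 60M-GS, against 32.7% in 5M-GS, and the others 86.0% in 60M-GS, against 50.9% in 5M-GS. In the block at 3 Mb of chromosome 9 it had 75.7% in 60M-GS, against 19.6% in 5M-GS over 21 CpGs, and the others 82.9% in 60M-GS, against 46.3% in 5M-GS over 104. On chromosome 14 its 3 CpGs had 78.6% in 60M-GS, against 21.3% in 5M-GS, and the 28 others 80.8% in 60M-GS, against 45.2% in 5M-GS. The single fifth-position CpG at 35.3 Mb of chromosome 9 had 80.8% in 60M-GS, against 22.1% in 5M-GS. The fifth position was the lower one in 5M-GS in each of the 4 blocks that held it. It was picked for its low level over these same CpGs, 21 of them in 1 block, so this is a description. Copies of 1 array may also give reads to all 4 blocks. CpGs on the ladder with 10 to 1000 calls, which the depth rule did not take, showed the same order: 43 at the fifth position had medians of 68.5% in 60M-GS, against 14.9% in 5M-GS, and 195 at other positions had 78.6% in 60M-GS, against 41.1% in 5M-GS. Of these 238 shallower CpGs, 173 passed as higher.

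**Figure D3:**
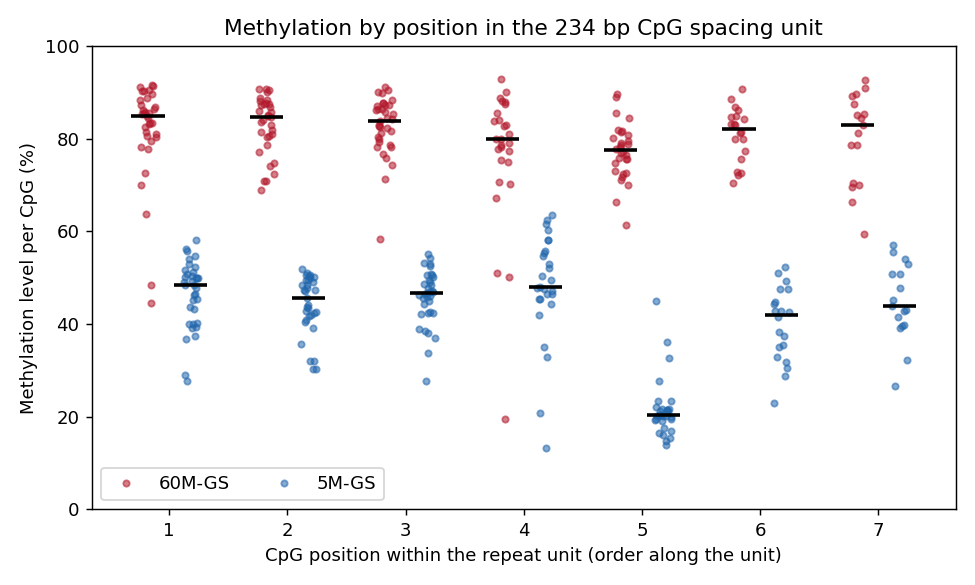
Methylation level in percent of each of the 197 ladder CpGs by its position, 1 to 7, in the 234 bp unit, with 60M-GS left of 5M-GS at each position and a black bar at the median. The medians lie within 7.40 points of each other in 60M-GS, while in 5M-GS the fifth position, at a median of 20.3%, lies below all others.

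The largest number of members, 149, lay over 38226 bp at chr9:3000031-3038256, at the start of the assembled sequence of chromosome 9, which begins at 3 Mb in this build. Their level was 79.1% in 60M-GS, against 40.9% in 5M-GS, and 144 passed as higher. Of 537 other CpGs of this block with fewer calls, 239 passed as higher, with medians of 79.2% in 60M-GS, against 43.8% in 5M-GS. Of these 239, 211 were among the 316 within the members' span, and 28 among the 221 outside it. The 316 include ladder CpGs with 10 to 1000 calls that were counted above. The nearest annotated gene was the microRNA gene Mir101c, 413 bp away. The 9 members at chr9:35305242-35305534, inside the lncRNA gene Gm33838, all lay on the ladder and had 84.6% in 60M-GS, against 37.4% in 5M-GS. Of the 626 other CpGs of that block, 1 passed as higher. Their medians were 88% in 60M-GS, against 88.8% in 5M-GS, so most of them lacked the room to pass. The count therefore cannot tell whether the change stopped at the stretch.

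On chromosome 14, 38 members at chr14:19415740-19419615, 10648 bp from Gm9637, had 80.3% in 60M-GS, against 42.4% in 5M-GS, and 36 passed. The fifth ladder block, chr12:3109883-3110026, had 4 members with 76.0% in 60M-GS, against 41.2% in 5M-GS, all of which passed. Its relative depth, the share of all calls in 60M-GS over that in 5M-GS, was 1.02. In the chromosome 2, chromosome 9 and chromosome 14 blocks it was 0.922, 0.857, 0.867 and 0.898. Of the 4 chromosome 12 members, only chr12:3110026 had more calls in 60M-GS, 10117, against 8446 in 5M-GS. How depth and methylation level go together was not tested. Outside the stretches, 54 of the 1633 CpGs of the 5 ladder blocks passed as higher (3.31%), where 2.02% of all CpGs tested did.

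Among the 48 CpGs off the ladder in these blocks, 41 passed as higher. Levels over 60% in 60M-GS and under 35% in 5M-GS, as at 28 of the 30 fifth-position CpGs, were found at 17 of the 48. These 17 had 60.5% to 86.6% in 60M-GS, against 15.8% to 34.7% in 5M-GS, ranges that the limits themselves bound. At the other end, 5 CpGs were under 20% in both cultures. The one with the most calls, chr2:98662601, had 18.3% in 60M-GS, against 18.8% in 5M-GS. The lowest, chr2:98665027, had 2.95% in 60M-GS, against 2.31% in 5M-GS. At chr2:98662903 the level was 9.54% in 60M-GS, against 4.68% in 5M-GS, while the next CpG, 8 bp on at chr2:98662911, had 90.8% in 60M-GS, against 54.0% in 5M-GS. The other two were chr9:3032403, with 9.23% in 60M-GS, against 7.98% in 5M-GS, and chr14:19418669, with 6.81% in 60M-GS, against 5.60% in 5M-GS. Whether these positions hold a CpG in most copies was not tested.

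The 18 CpGs of close pairs lay 9 to 10 bp from their partner, with another CpG about 120 bp away. That other CpG did not have to belong to a pair. Of the 18, 16 were in the chromosome 2 stretch and 2 on chromosome 6 in Chl1, a gene for a neural cell adhesion molecule. The minor satellite is known for a unit of about 120 bp. It is also known for the CENP-B box, a binding motif for the centromere protein CENP-B that holds a pair of CpGs. Whether these 18 CpGs belong to it was not tested. The level of the 18 was 63.9% in 60M-GS, against 40.4% in 5M-GS, a difference of 23.5 points (23.4 to 23.6). All 18 were higher in 60M-GS, and 11 passed the 20-point limit. The deepest pair, chr2:98665063 and chr2:98665072, had 65.6% and 62.9% in 60M-GS, against 39.5% and 36.7% in 5M-GS. The smallest difference was at chr2:98662794, with 82.4% in 60M-GS, against 79.5% in 5M-GS. Pooled over calls, the pairs lay below the ladder CpGs in both cultures, and by more in 60M-GS (63.9% and 86.9%) than in 5M-GS (40.4% and 48.7%). Medians over CpGs had the same order, with 62.0% and 82.4% in 60M-GS, against 40.4% and 45.0% in 5M-GS. As a mean over CpGs the pairs were lower in 60M-GS (63.8% and 80.4%) but not in 5M-GS (42.8% and 41.6%).

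The 105 CpGs in short dense stretches lay in 11 blocks, in runs that spanned 28 to 142 bp. The median gap over all 11 runs together was 5.5 bp. Their level was 63.8% in 60M-GS, against 30.2% in 5M-GS, all 105 were higher in 60M-GS, and 97 passed. By block the level lay between 40.1% and 73.8% in 60M-GS, against 18.8% and 51.5% in 5M-GS, with differences of 17.4 to 41.4 points. The left-out chromosome 17 CpGs had 62.9% in 60M-GS, against 27.5% in 5M-GS. Whether the stretches are related to that block was not tested.

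Of the 11 stretches, 8 lay inside annotated genes. The largest, chr16:57391481-57391622, lay in Filip1l, which encodes a filamin-interacting protein, and in Cmss1. All 21 of its CpGs passed, with 64.8% in 60M-GS, against 27.6% in 5M-GS. At chr16:11144084-11144170 in Zc3h7a, a zinc finger gene, 17 of 18 passed, with 73.8% in 60M-GS, against 36.0% in 5M-GS. A stretch outside genes at chr3:5860619-5860740 had 61.3% in 60M-GS, against 29.8% in 5M-GS, and all 16 CpGs passed. Their relative depths were 0.876, 0.914 and 0.921. The differences were 37.2, 37.9 and 31.5 points, the smallest being that on chromosome 3.

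Jarid2, which encodes a cofactor of Polycomb repressive complex 2, held 9 members at chr13:44869609-44869654 with 68.4% in 60M-GS, against 34.4% in 5M-GS. Cdk8, which encodes a kinase of the Mediator complex, held 8 at chr5:146261089-146261188 with 63.3% in 60M-GS, against 22.1% in 5M-GS. Camk1d, a calmodulin-dependent kinase gene, held 7 at chr2:5379302-5379329 with 61.2% in 60M-GS, against 29.5% in 5M-GS. All members of these 3 genes passed as higher, and their relative depths were 0.969, 1.00 and 0.894. The smallest differences were in Lars2, the gene for mitochondrial leucyl-tRNA synthetase, and outside genes on chromosome 6. Lars2 held 5 members at chr9:123461996-123462023 with 68.9% in 60M-GS, against 51.5% in 5M-GS, of which 3 passed, at a relative depth of 1.07. The 9 at chr6:3201442-3201533 had 40.1% in 60M-GS, against 18.8% in 5M-GS, 7 passed, and the relative depth was 0.668. The last 3 stretches held 4 members each. Gphn, which encodes the synaptic scaffold gephyrin, had 53.1% in 60M-GS, against 27.8% in 5M-GS, Gm15564 on chromosome 16 had 72.4% in 60M-GS, against 31.0% in 5M-GS, and the stretch 7371 bp from Tra2a on chromosome 6 had 61.4% in 60M-GS, against 37.6% in 5M-GS. Around the stretches, 244 of the 7880 other CpGs of these blocks passed as higher (3.10%), where 2.02% of all CpGs tested did. The blocks differed in this. Around the stretch near Tra2a 49 of 1011 passed, with medians of 54.2% in 60M-GS, against 31.6% in 5M-GS. Around the chromosome 3 stretch 24 of 321 passed, and in Jarid2 2 of 639. The medians of these other CpGs in 5M-GS were 87.2% on chromosome 3 and 91.5% in Jarid2, so most of them could not gain 20 points.

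Sfi1, whose yeast and human counterparts bind centrin at the spindle pole or centrosome, held CpGs of another kind. Its 35 members on chromosome 11, between 3172578 and 3199357, had a level of 35.9% in 60M-GS, against 36.8% in 5M-GS, and none passed, although 18 differed at an unadjusted p under 0.05. The relative depth of the block was 0.878. They split by level: 23 were under 50% in 5M-GS, with medians of 7.06% in 60M-GS, against 10.0% in 5M-GS, and 12 were above, with medians of 91.89% in 60M-GS, against 91.96% in 5M-GS. Of the 23 low ones, 21 were lower in 60M-GS, most of all chr11:3193056, with 7.06% in 60M-GS, against 18.3% in 5M-GS. The CpG nearest to a change was chr11:3194235, with 43.4% in 60M-GS, against 23.5% in 5M-GS, 19.9 points higher. Of the other CpGs of this block, 1 of the 198 that lay among the deep ones passed as higher and 85 of the 619 outside their span, where 2.02% of all CpGs tested did.

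The 37 remaining members lay in 22 blocks, and 5 of them passed as higher. Of these 5, 2 flanked the close pair in Chl1, with 74.3% in 60M-GS, against 43.0% in 5M-GS at chr6:103649055 and 44.5% in 60M-GS, against 20.1% in 5M-GS at chr6:103649287. A further 2 lay in Gm46595 on chromosome 17, with 64.0% and 64.1% in 60M-GS, against 27.8% and 25.1% in 5M-GS. The fifth, the largest change of a member outside the other classes, was chr10:58225381 in LOC100504180, with 77.3% in 60M-GS, against 25% in 5M-GS. The other 32 did not pass. At chr15:75085812-75086939, 10792 bp from Gm5960, 9 members had 83.5% in 60M-GS, against 74.4% in 5M-GS, with differences of 1.61 to 13.2 points. The pair of CpGs 35309 bp from Pak3 on chromosome X lay 9 bp apart and differed far more from each other than between cultures. The first, at 143483048, had 4.36% in 60M-GS, against 2.31% in 5M-GS, and the second, at 143483057, had 73.0% in 60M-GS, against 55.9% in 5M-GS.

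The member that came nearest to passing as lower was chr9:80399483, in Impg1, which encodes a matrix proteoglycan of the retina, with 29.7% in 60M-GS, against 48.9% in 5M-GS. Its adjusted p in Fisher's exact test was 1.46e-12 and its difference of -19.3 points fell just short of the limit. It had 627 calls in 60M-GS, against 1306 in 5M-GS, and the relative depth of its block was 0.473. Relative depth was lower still at chrX:134150230 in Xkrx and at chr16:98107534, with 75 and 68 calls in 60M-GS, against 1169 and 1135 in 5M-GS. Their levels stayed low, at 8.0% in 60M-GS, against 2.22% in 5M-GS on chromosome X, and 11.8% in 60M-GS, against 5.81% in 5M-GS on chromosome 16. A pair of lone CpGs, chr5:86652120 and chr9:44144416, had no methylated call in either culture.

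By block, 18 of the 39 stood 20 points or more higher on their members in 60M-GS, 2 by 10 to 20 points, and 19 stayed within 10 points. The lowest difference of a block was -2.20 points. Relative depth ran from 0.0595 to 1.21 over the 39 blocks with a median of 0.967, and 26 blocks were below 1. The 14 blocks with at least 5 members or 1% of the members' calls included 11 of the 18. Among the 15 blocks with a single member, 13 stayed within 10 points. When all CpGs of a block were pooled and tested in the same way, 11 of the 39 passed as higher, where 1.82% of the 25464 blocks tested did. With a block's level taken as a mean over its CpGs, 1 of the 39 passed (2.56%), where 1.74% of all blocks did. The count of 11 rests in part on the deep CpGs. Without them 4 of the 39 passed (10.3%), where 1.79% of all blocks did. Of the 6 blocks in the first 500 kb of a chromosome's assembled sequence, 3 were higher by at least 20 points and 3 stayed within 10. Whether place on the chromosome matters was not tested.

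**Figure D4:**
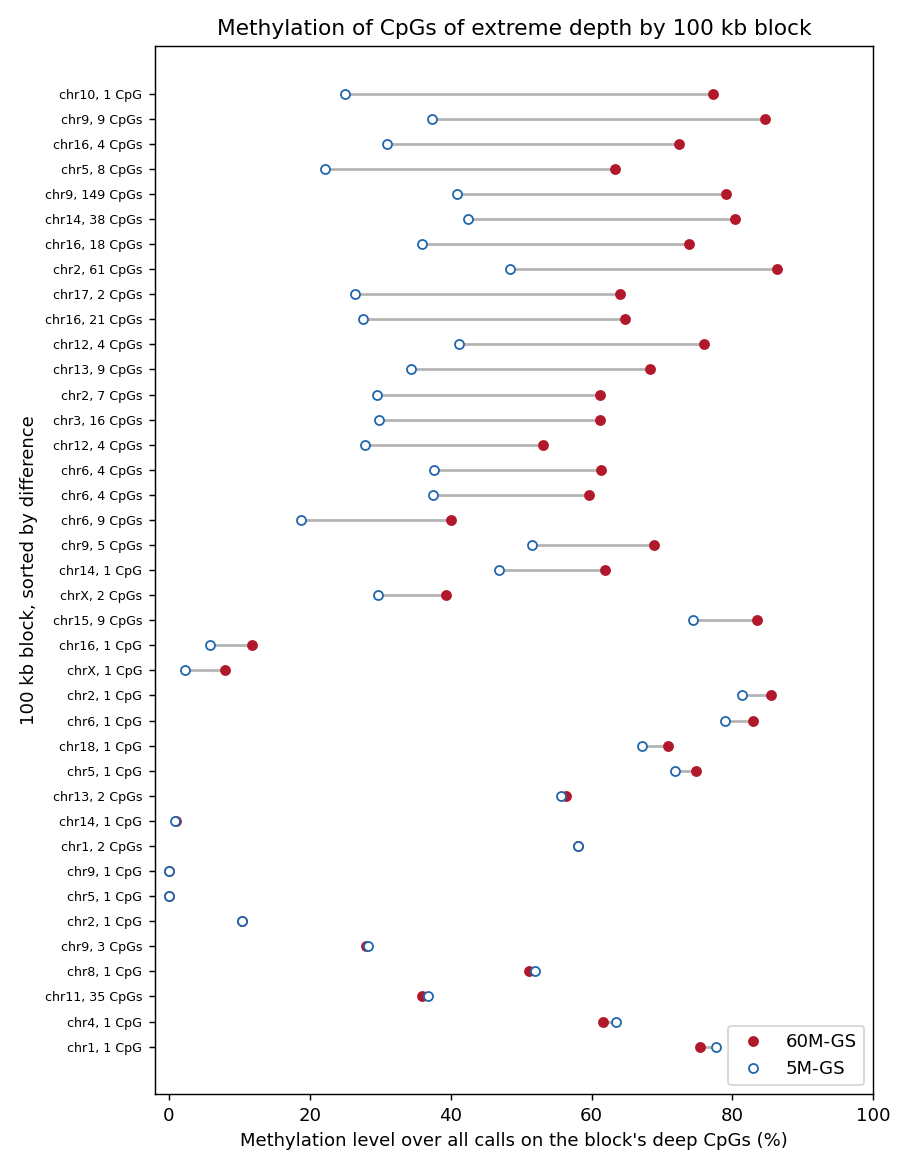
Methylation level in percent over all calls on the deep CpGs of each of the 39 blocks, sorted by difference from the top, with filled points for 60M-GS, open points for 5M-GS and a grey line between them; labels give the chromosome and the number of members. The difference is at least 20 points in the upper 18 blocks and within 10 points in the lower 19.

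The share of members that passed was read by their level in 5M-GS. A CpG must gain at least 20 points to pass as higher, so one above 80% in 5M-GS cannot, and one at 60 to 80% has limited room. Of members at 20 to 40% in 5M-GS, 95.1% of 164 passed as higher, and of those at 40 to 60%, 91.2% of 171. Of those at 0 to 20%, 44.9% of 69 passed, of those at 60 to 80%, 22.2% of 18, and none of the 18 above. Among non-members the shares were 27.4% at 20 to 40% and 11.8% at 40 to 60%. For non-members with over 100 calls, whose depth is closer to the members', the shares were 45.4% and 37.8%. This set includes ladder CpGs under the depth limit, so it differs from the other non-members in more than depth. How much of the gap between members and non-members goes with depth was not tested.

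**Figure D5:**
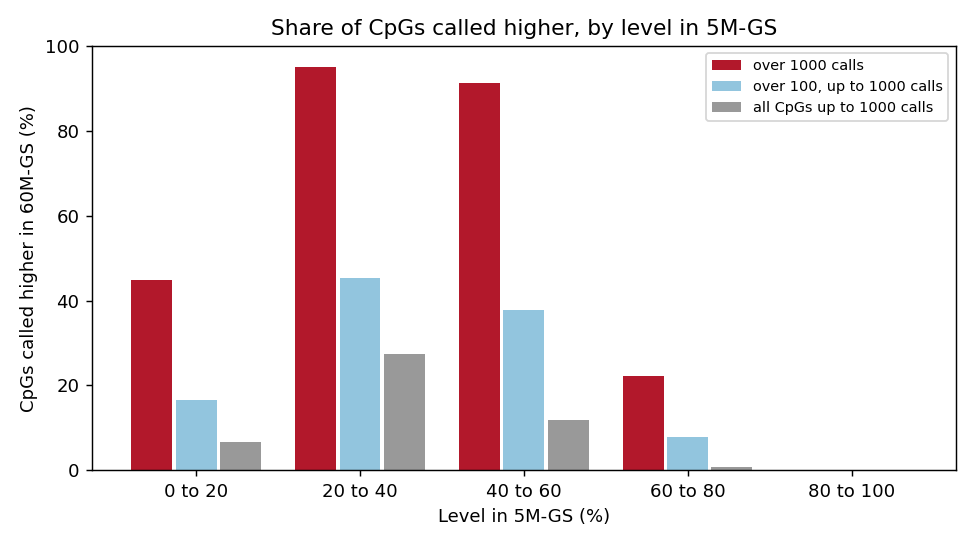
Percent of CpGs that passed as higher in 60M-GS, by level in 5M-GS, for the members (over 1000 calls), CpGs with over 100 and up to 1000 calls and all CpGs up to 1000 calls. Members stand at 95.1% and 91.2% in the classes from 20 to 60%, above both other sets, and at 0 in the class from 80 to 100%.

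A list of 26 genes known to act on methylation or heterochromatin of pericentromeric satellites was read at its promoters. Of these, 25 had an annotated start, with 38 windows from 1000 bp upstream to 500 bp downstream. No window passed as higher, where 4.34% of the 30655 windows tested did, and none as lower, where 0.528% did. At an unadjusted p under 0.05 in Fisher's exact test, 6 windows differed. The median difference over the list was 0.05 points, and 0.12 over all windows. In 34 of the 38 windows the level was at most 10% in both cultures. Dnmt1, the maintenance methyltransferase, had 0.827% in 60M-GS, against 0.589% in 5M-GS at its window with the most CpGs. Uhrf1, which brings DNMT1 to newly copied DNA, had 0.635% in 60M-GS, against 0.851% in 5M-GS. The de novo enzymes Dnmt3a and Dnmt3b had 0.329% and 1.34% in 60M-GS, against 0.590% and 0.922% in 5M-GS. The window that differed most, chosen after its value was seen, was at Dnmt3l, the germline cofactor of the de novo enzymes, with 63.4% in 60M-GS, against 74.9% in 5M-GS at 1 of its 3 starts.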

How the data were processed

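Whole-genome bisulfite libraries came from 2 samples each of 60M-GS and 5M-GS. Per the submitters' processing notes, the build was mm10 and the aligner Bismark 0.10.0. The deposited tables give counts of methylated and of unmethylated calls per CpG, and the percent of methylated calls, as the authors made them; 1 table per age pools both samples. The sources used here give no filters, deduplication or strand merging; each CpG has 1 row. Levels were recomputed from the counts. CpGs, 100 kb blocks with at least 10 CpGs, and RefSeq (GRCm38.p6) promoter windows with at least 4 CpGs of 5 calls were compared by a two-sided Fisher's exact test with Benjamini-Hochberg adjustment over all features of a kind (Python 3.11.15, scipy 1.17.1, numba 0.67.0), tested on simulated data. Wilson intervals, combined by Newcombe's method for differences, are at 95%. A ladder CpG matched at least 4 positions of the 234 bp spacing, with at most 9 CpGs nearby; a dense stretch held at least 4 members within 150 bp. Blocks with at least 5 members or 1% of the members' calls were described, as were the 5 deepest CpGs and the first 4 genes of the promoter list. The members, classes and lists were chosen with earlier results of these data known. Thresholds of depth, coverage, difference and block size were varied.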

Additional observations from a re-analysis of the deposited data

How the results depend on the processing

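No paired analysis was possible because each age's samples were pooled in 1 table, and leaving out each replicate in turn was not run for the same reason. Of 440 members 347 passed as higher. With the depth limit at 2000 and 5000 calls, 221 of 251 and 142 of 162 members passed, since fewer CpGs were members; at 500 calls, 474 of 769 did. With a 10-point minimum, 2 members and 1 list promoter passed as lower. The pooled difference was 38.0, 38.3 and 38.3 points at 500, 2000 and 5000 calls, 38.2 with the limit applied in both tables, 40.2 without the deepest block, 40.2 without the deepest CpG, 30.8 as a mean and 36.2 as a median over CpGs, and 18.1 as a mean over blocks. The ratio of call shares was 0.876 without the deepest block, 0.910 over non-member calls and 0.881 in units of median depth. The number of member blocks passing was 11 with 100 kb blocks, 25 of 45 at 10 kb and 5 at 500 kb. It was 18 on members only, 4 on non-members only, 21 with a 10-point minimum and 1 when a block's level was a mean over its CpGs. In the same order, 1.82, 3.26, 1.62, 1.94, 1.79, 6.85 and 1.74% of all blocks passed. The other alternatives run left these results on their side of the threshold. At these depths the counting intervals are narrow and say nothing of the spread between samples, which the pooled tables do not hold. Reads from many copies share 1 position, and reads copied from 1 molecule may be counted more than once.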
